A study of Mus musculus with 8 samples.

Results

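The unfolded protein response and the integrated stress response were read here through 10 genes, Hspa5, Hsp90b1, Ddit3, Atf4, Atf6, Xbp1, Ern1, Eif2ak3, Trib3, and Chac1. They were taken from the count table by gene symbol and cover ER chaperones, stress sensors, transcription factors, and targets of ATF4. These genes and all lists used below were chosen with earlier results of these data known. The symbols matched 11 of the 54532 genes of the table, because Ddit3 has another entry (ENSMUSG00000116429) that received 0 counts in all 8 tumors and was not used further. All 10 genes passed the filter on low counts and were among the 18511 genes tested.

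The endoplasmic reticulum (ER) folds and exports secreted and membrane proteins. When unfolded proteins accumulate there, the sensors PERK (Eif2ak3), IRE1 (Ern1), and ATF6 are activated, IRE1 splices Xbp1 mRNA, and the factors XBP1 and cleaved ATF6 induce chaperones and degradation enzymes. PERK and the other eIF2α kinases lower general translation and raise translation of ATF4, which induces CHOP (Ddit3), Trib3, Chac1, and genes of amino acid supply. Counts per gene read neither the splicing of Xbp1, nor the cleavage of ATF6, nor the translation of ATF4.

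Tumors were grown from 4T1, a mouse TNBC line carrying firefly luciferase (4T1-FLuc), injected subcutaneously into young, immunocompetent female BALB/cJ mice. The treated group received repeated intravenous courses of mAb-DXd/IMQ, in which a humanized antibody to CD276 is joined to the TOP1 inhibitor DXd and to IMQ, which activates TLR7 and TLR8. The control group received saline according to the sample titles, while the treatment field of the same samples names PBS. Bulk RNA from 4 tumors per group, each from its own mouse, was sequenced at the endpoint, so the groups differ in the whole course of treatment and tumor growth and share line, strain, and sex. The question was whether genes of the stress responses differed between treated and control tumors. Both payloads and the antibody were given together, so their parts cannot be told apart.

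Total counts were between 34591912 and 69582375 per tumor, and 3 counts corresponded to 0.0439 to 0.0843 CPM (counts per 1e+06 of the TMM-scaled library). This floor reflects counting error alone. The least covered of the 10 genes, Chac1, had between 115 and 235 counts per tumor, so counting depth did not limit any of them. Total counts overlapped between groups (two-sided exact permutation test, which can give no p below 0.0286, p = 0.171). The mitochondrial share of counts was 2.46% ± 0.053 in saline tumors against 2.90% ± 0.79 with mAb-DXd/IMQ (SD, n = 4 each; exact permutation test, p = 0.429). It was 1.77% in mAb-DXd/IMQ 1, below every saline tumor, and 3.14%, 3.05%, and 3.61% in mAb-DXd/IMQ 2, 3, and 4, above every saline tumor. What this share reflects, and its part in the results, was not tested. Tumor mAb-DXd/IMQ 1 stood apart in several measures: it had the fewest genes with a count (22754, against 23645 to 24916 in the others), the lowest mitochondrial share, and the lowest TMM factor (0.94).

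The ER chaperones Hspa5 and Hsp90b1 were higher in every mAb-DXd/IMQ tumor than in any saline tumor, and Ern1 was lower in every mAb-DXd/IMQ tumor. None of the 10 genes passed the thresholds, which were an FDR (Benjamini-Hochberg) below 0.05 together with a log2 fold change beyond 0.58 in either direction, in edgeR's quasi-likelihood test. The count was 0 of 10, where 197 of 18511 genes tested passed, or 1.06%. DESeq2 also called 0 of 10 (4.43% of its genes), and limma-voom 0 of 10 (0.94%). With DESeq2, Hspa5 alone was under the FDR threshold (adjusted p = 0.0277), and its log2 fold change of 0.50 was under the fold limit. At an unadjusted p under 0.05, edgeR counted 3 of 10 (Hspa5, Hsp90b1, and Ern1), DESeq2 3 of 10, and limma-voom 3 of 10. Of all tested genes, 18.9% were under the same unadjusted p in edgeR. Without mAb-DXd/IMQ 3, the edgeR count at that p was 5 of 10, and without saline 1 it was 4. It was 2 of 10 without saline 2, 3, or 4 or mAb-DXd/IMQ 1 or 2. The count was also 2 of 10 when scaled by library totals, with a filter on CPM, and after correction for gene length. The groups did not overlap for Hspa5, Hsp90b1, and Ern1, 2 higher and 1 lower, and for 13.1% of all tested genes. The count of 197 was itself unstable: without saline 3, saline 4, or mAb-DXd/IMQ 4 it was 10, 11, and 12, and without saline 2, mAb-DXd/IMQ 2, or mAb-DXd/IMQ 3 it was 111, 76, and 88.

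The median log2 fold change of the 10 genes was 0.24, beside 0.02 over all tested genes, and 7 of 10 were above 0, as were 52.6% of all tested genes. Without mAb-DXd/IMQ 1, the median of the 10 was 0.087 and 5 of 10 were above 0. After correction for gene length these were 0.13 and 6 of 10. That tumor had the highest CPM of the 8 tumors for 6 of the 10 genes (Hspa5, Hsp90b1, Atf4, Xbp1, Trib3, and Chac1) and the lowest for Ern1. Over all tested genes it was highest for 21.8% and lowest for 20.9%. In bulk tumors, a change in the number of cells of a type and a change in RNA per cell cannot be told apart.

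**Figure D1:**
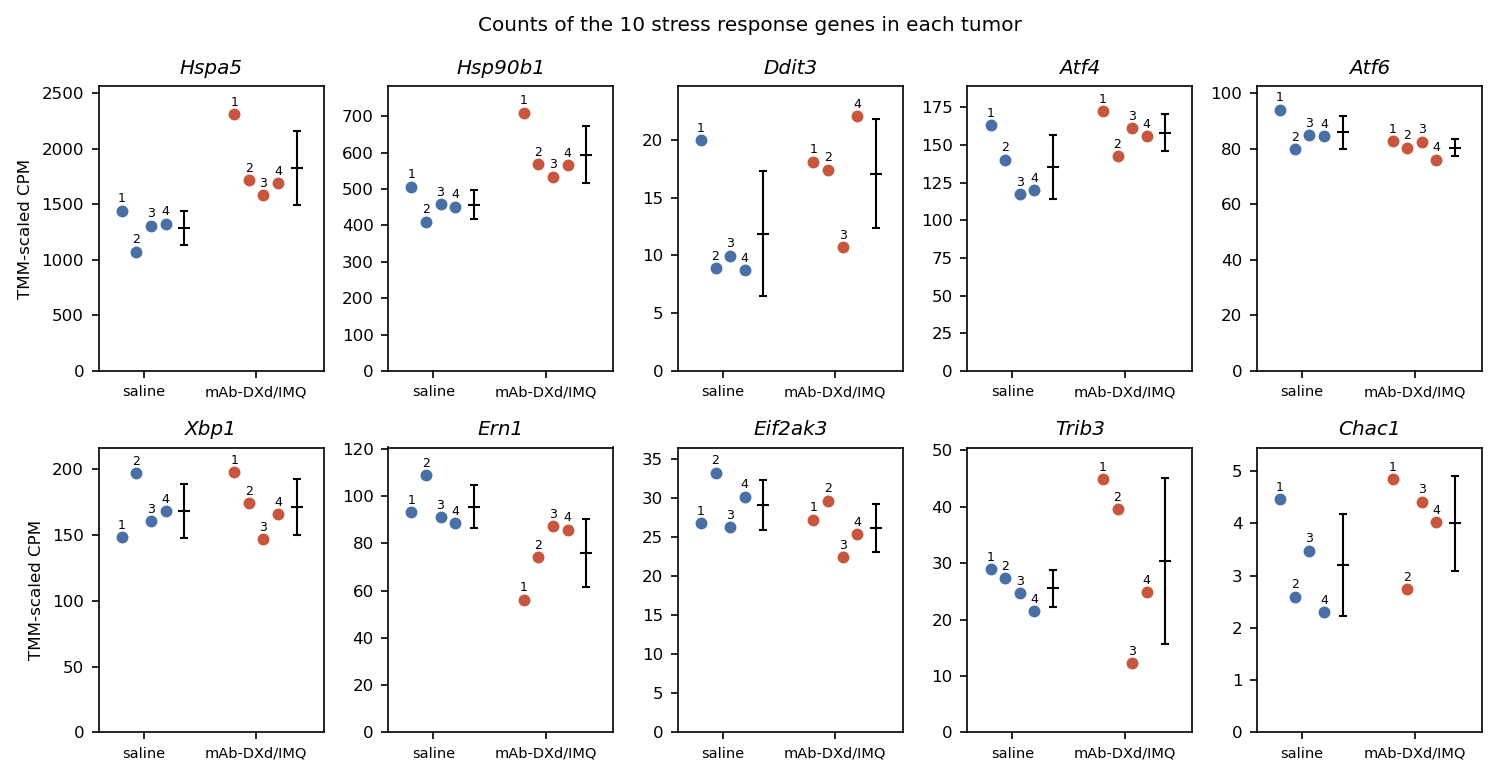
TMM-scaled CPM of the 10 genes (vertical axes, each starting at 0) in saline and mAb-DXd/IMQ tumors; each point is a tumor labelled with its replicate number, and the bar gives the mean and SD of 4 tumors. Hspa5 and Hsp90b1 are higher in all 4 treated tumors, with tumor 1 at the top, and Ern1 is lower in all 4.

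Per gene length, Hspa5 was the most abundant of the 10 genes in both groups, at 304 ± 36.5 RPKM (CPM per kilobase of gene length; SD, n = 4) in saline tumors and 431 ± 78.0 RPKM in mAb-DXd/IMQ tumors. Hsp90b1 was next, at 113 ± 9.8 RPKM and 148 ± 19.5 RPKM, and its range overlapped neither neighbor in this order. Atf4 and Xbp1 came after it at 57.4 and 51.9 RPKM in saline tumors and 67.0 and 52.7 RPKM in mAb-DXd/IMQ tumors, with overlapping ranges. In saline tumors the order continued with Trib3 (12.0 RPKM), Ern1 (11.7), Atf6 (9.31), Ddit3 (6.93), and Eif2ak3 (4.84). Within that stretch, Trib3 overlapped Ern1, Atf6 overlapped Ddit3, and Ddit3 overlapped Eif2ak3. In mAb-DXd/IMQ tumors Ddit3 (9.96 RPKM) stood between Trib3 (14.3) and Ern1 (9.29), and these neighbors overlapped. Chac1 was lowest, at 1.96 and 2.45 RPKM.

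**Figure D2:**
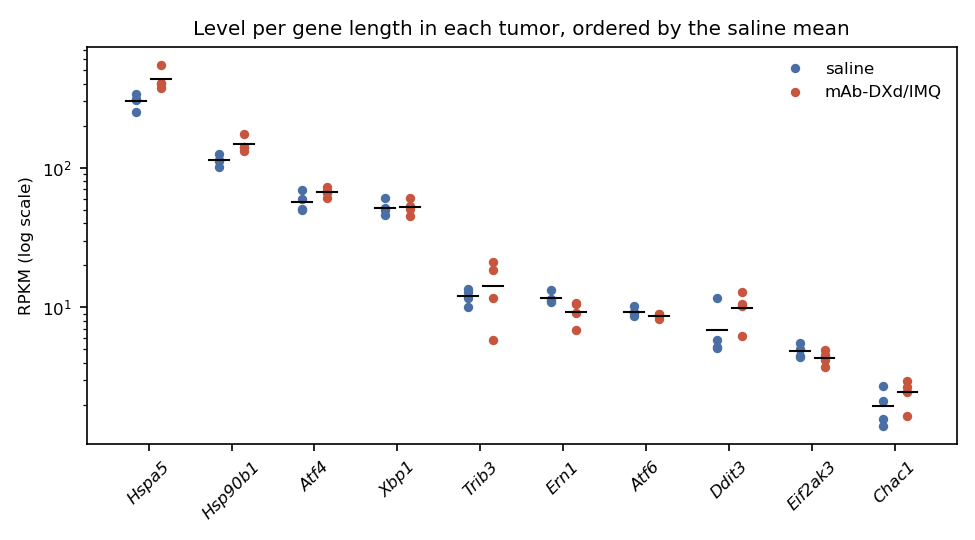
RPKM of each gene (log scale) in each tumor, ordered by the saline mean; points are tumors and short lines the means of 4. The order runs from Hspa5 (304 RPKM in saline tumors) to Chac1 (1.96 RPKM), and the groups lie close together beside this whole range. Some neighboring genes lie closer to each other than the groups do. Trib3 and Ern1 were at 12.0 and 11.7 RPKM in saline tumors and at 14.3 and 9.29 RPKM in mAb-DXd/IMQ tumors.

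Hspa5 (ENSMUSG00000026864, chr2:34771970-34777547, plus strand) encodes BiP, the HSP70 chaperone of the ER lumen that also holds the sensors inactive, and Hsp90b1 (ENSMUSG00000020048, chr10:86690209-86705509, minus strand) encodes GRP94, its HSP90 counterpart. Promoters of such genes can carry the ER stress response element (ERSE), searched here as CCAAT and CCACG separated by 9 bases, on both strands, in windows from 250 bases before to 50 bases after the start (RefSeq, GRCm38.p6). The windows of Hspa5 and Hsp90b1 are shown because these were the pair among the 10 genes that was higher in every treated tumor. That of Creld2, an ER protein, is shown because it was the chaperone list's single gene past the thresholds and also holds the element. These windows lie at chr2:34771840-34772139 (plus strand), chr10:86705395-86705694 (minus strand), and chr15:88819396-88819695 (plus strand) and are written 5′ to 3′ along the gene, with the letters of each match in capitals.
Hspa5: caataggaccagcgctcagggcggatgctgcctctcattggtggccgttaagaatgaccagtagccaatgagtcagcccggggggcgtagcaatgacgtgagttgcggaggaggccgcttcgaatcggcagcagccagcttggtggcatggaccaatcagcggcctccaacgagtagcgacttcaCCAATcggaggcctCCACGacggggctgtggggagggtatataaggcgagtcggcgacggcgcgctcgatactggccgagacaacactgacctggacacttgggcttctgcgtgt
Hsp90b1: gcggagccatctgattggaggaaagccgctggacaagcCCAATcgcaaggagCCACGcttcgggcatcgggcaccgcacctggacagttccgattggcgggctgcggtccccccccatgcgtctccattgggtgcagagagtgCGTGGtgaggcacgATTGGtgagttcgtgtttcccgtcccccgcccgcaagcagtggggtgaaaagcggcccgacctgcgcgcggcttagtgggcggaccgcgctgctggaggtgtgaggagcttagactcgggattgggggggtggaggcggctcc
Creld2: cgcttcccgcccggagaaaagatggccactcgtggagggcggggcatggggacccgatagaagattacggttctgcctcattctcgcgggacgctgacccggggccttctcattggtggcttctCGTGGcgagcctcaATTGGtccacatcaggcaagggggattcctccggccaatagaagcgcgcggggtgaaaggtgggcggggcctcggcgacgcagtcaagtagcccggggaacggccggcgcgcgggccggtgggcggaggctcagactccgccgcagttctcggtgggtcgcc
The match in Hspa5 spans positions -65 to -47 from the start, and those in Hsp90b1 -212 to -194 and, read on the complementary strand, -107 to -89. In Creld2 it spans -126 to -108 on the complementary strand. None of these matches overlapped another motif searched. Of 32851 promoter windows in the table, 39 hold this element, or 0.119%. An entry was found for 9 of the 10 genes, not for Atf6, and 2 of the 9 hold the element. Of the ER chaperone list described below, 6 of the 16 genes with an entry do (Calr, Canx, Pdia6, Dnajc3, Creld2, and Ero1lb). Of these 6, Canx, Pdia6, and Creld2 were higher in every treated tumor, Calr and Dnajc3 overlapped between groups, and Ero1lb was under 0. Pdia3, Hyou1, Dnajb11, Sdf2l1, and Ppib were also higher in every treated tumor. They were not among the holders, though not every listed gene had an entry. All but Creld2 and Dnajb11 are named here after their values were seen. The core of the related UPRE, TGACGTGG, is in 0.676% of windows and in 0 of the 9. A match describes the letters only.

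Hspa5 stood at 1441, 1072, 1307, and 1324 CPM in saline tumors 1 to 4 and at 2311, 1717, 1580, and 1690 CPM in mAb-DXd/IMQ tumors 1 to 4. The lowest treated tumor was above the highest saline tumor, and mAb-DXd/IMQ 1 was far above the rest. The log2 fold change was 0.50 (SE 0.16, 95% interval 0.15 to 0.86), a ratio of 1.42 (edgeR, unadjusted p = 0.0102, adjusted p = 0.131). Without mAb-DXd/IMQ 1 it was 0.37 (adjusted p = 0.132).

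Hsp90b1 was counted at 507, 410, 458, and 452 CPM in saline tumors and at 710, 569, 534, and 566 CPM in mAb-DXd/IMQ tumors. The pattern was that of Hspa5, with saline 2 lowest, mAb-DXd/IMQ 1 highest, and no overlap. Its log2 fold change was 0.38 (SE 0.13, 95% interval 0.094 to 0.67; edgeR, unadjusted p = 0.0138, adjusted p = 0.148), and 0.28 without mAb-DXd/IMQ 1 (adjusted p = 0.145). Of its 100-base transcript windows, 5.57% also occur in the antisense pseudogene 1810014B01Rik, whose counts came to 1.12% of those of Hsp90b1.

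**Figure D3:**
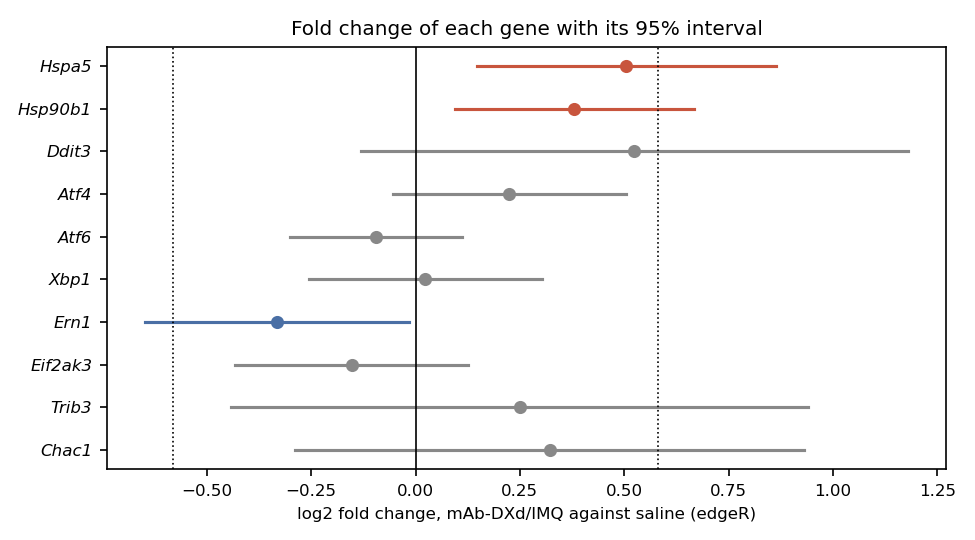
edgeR log2 fold change of mAb-DXd/IMQ against saline tumors (horizontal axis) with its 95% interval for each of the 10 genes. Dotted lines mark the fold limit of 0.58 in both directions; red and blue mark genes whose groups did not overlap (higher and lower), and gray the others. The intervals of Hspa5, Hsp90b1, and Ern1 do not reach 0, and every point lies inside the limits.

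The other chaperones and folding enzymes of the ER tended the same way. Their list was chosen with earlier results of these data known, so its shares describe it and are not independent support. Of 19 listed genes tested, 1 rose (1.06% of all tested genes were called in either direction), 0 fell, and 16 were above 0 (52.6% of all tested genes), with a median log2 fold change of 0.20 (0.02 over all tested genes). Groups did not overlap, with the treated tumors higher, for 8 of 19 (Canx, Pdia3, Pdia6, Hyou1, Dnajb11, Sdf2l1, Creld2, and Ppib, named after their values were seen), or 42.1%, where 5.97% of all tested genes were so. At an unadjusted p under 0.05 were 8 of 19, beside 18.9% of all tested genes. The sets differ, since Canx had a higher p and Dnajb9, which was lower, joins the second. The second count was 6 of 19 after correction for gene length, 6 of 19 with a replicate block, and 3 of 19 with both. Creld2 rose: it was at 41.3, 37.5, 36.9, and 37.7 CPM in saline tumors and at 67.2, 51.2, 55.9, and 56.5 CPM in mAb-DXd/IMQ tumors. All 4 treated tumors were above the saline range, for a log2 fold change of 0.59 (SE 0.11; edgeR adjusted p = 0.0306). That value lay at the fold limit, and the call was lost without mAb-DXd/IMQ 1 (0.51, adjusted p = 0.0428). It was also lost without saline 2, 3, or 4 (adjusted p = 0.0749, 0.106, and 0.128) and without mAb-DXd/IMQ 2, 3, or 4 (adjusted p = 0.0536, 0.0579, and 0.0899). The same happened when fold changes were corrected for gene length (0.47, adjusted p = 0.118).

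Dnajb11, a co-chaperone of BiP, came next by p, with 61.9 to 68.9 CPM in saline and 84.5 to 114 CPM in treated tumors and a log2 fold change of 0.51 (edgeR adjusted p = 0.055). P4hb, a protein disulfide isomerase and the list's most abundant gene, overlapped between groups (log2 fold change 0.15, edgeR adjusted p = 0.647), and was at -0.014 without mAb-DXd/IMQ 1. The 3 genes under 0, named after their values were seen, were Dnajb9 (-0.32), Ero1l (-0.25), and Ero1lb (-0.11), of which the first is a known XBP1 target and the others are the oxidases that re-oxidize disulfide isomerases. Without saline 1, 17 of 19 genes were above 0. Relative to its saline mean, Ero1l had a log2 ratio of 0.69 in saline 1 and of -0.26, -0.43, and -0.31 in saline 2, 3, and 4.

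Most of the list was highest in the same tumor. Of the 19 genes, 15 had their highest CPM of the 8 tumors in mAb-DXd/IMQ 1 (78.9%, where 21.8% of all tested genes did). Relative to each gene's saline mean, the median log2 ratio over the list was 0.52 in mAb-DXd/IMQ 1 and 0.22, 0.096, and 0.14 in mAb-DXd/IMQ 2, 3, and 4. Single saline tumors lay between -0.043 and 0.025 on this scale, which is centred on their mean. Without mAb-DXd/IMQ 1, 14 of 19 genes were above 0, the median log2 fold change was 0.11, and 0 of 19 passed the thresholds in edgeR, with 8 at an unadjusted p under 0.05.

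**Figure D4:**
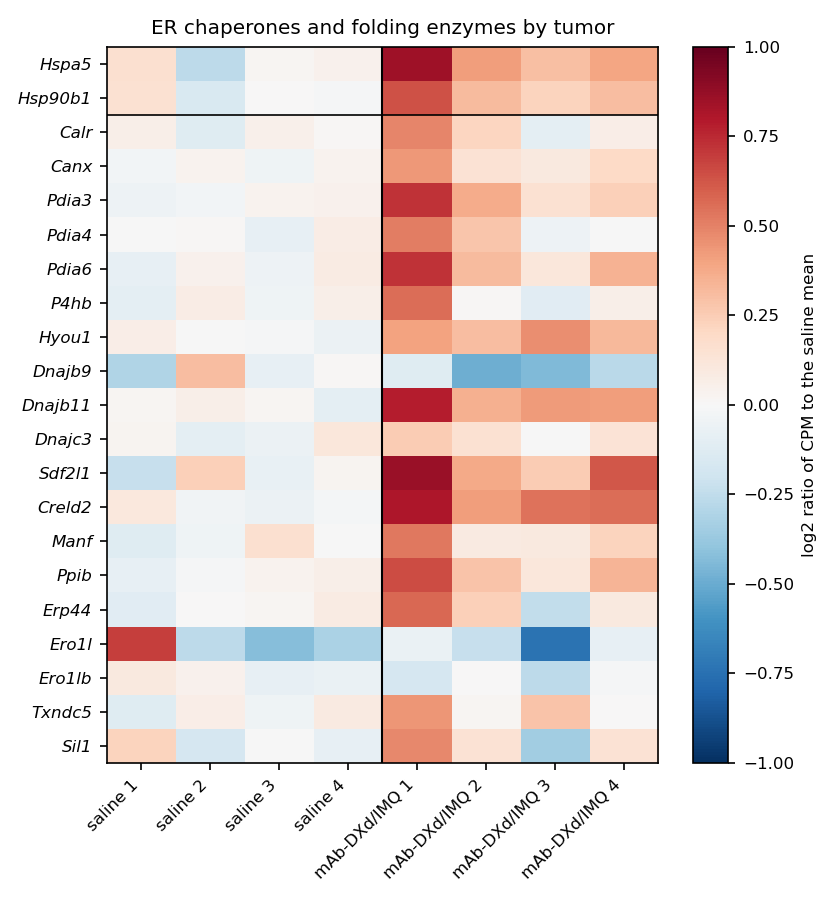
Log2 ratio of CPM to each gene's saline mean (color scale, red above and blue below) in each of the 8 tumors (columns) for Hspa5, Hsp90b1, and 19 ER chaperones and folding enzymes (top to bottom). Tumor mAb-DXd/IMQ 1 holds most of the darkest red cells, and Dnajb9 runs the other way.

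Entry into the ER and removal of misfolded proteins were read from separate lists. The 15 tested genes of ER-associated degradation, which return misfolded proteins to the cytosol for the proteasome, had a median log2 fold change of 0.018 with no stable sign. It was -0.0072 without saline 2, -0.0011 without saline 3, -0.024 without mAb-DXd/IMQ 1 (5 of 15 above 0), and -0.017 after correction for gene length. In edgeR 0 of 15 passed (1.06% of all tested genes did), and 0 of 15 had an unadjusted p under 0.05 (18.9% of all tested genes). Nploc4 (-0.19) and Sel1l (-0.14) had the smallest p, and Derl1, the most abundant, was at 0.07. Of the 15 tested genes of translocation into the ER, 0 passed in edgeR (1.06% of all tested genes) and 3 had an unadjusted p under 0.05 (20%, near the 18.9% of all tested genes; 1 of 15 after correction for gene length). Ssr2, a translocon-associated subunit, was at 137 to 158 CPM in saline and 161 to 262 CPM in treated tumors (log2 fold change 0.45, edgeR adjusted p = 0.125). The signal peptidase subunit Spcs2 overlapped (0.43, edgeR adjusted p = 0.141), and Ssr3, the most abundant, was at -0.05 (-0.15 without mAb-DXd/IMQ 1, and at most 0.0001 under 0 without mAb-DXd/IMQ 3).

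**Figure D5:**
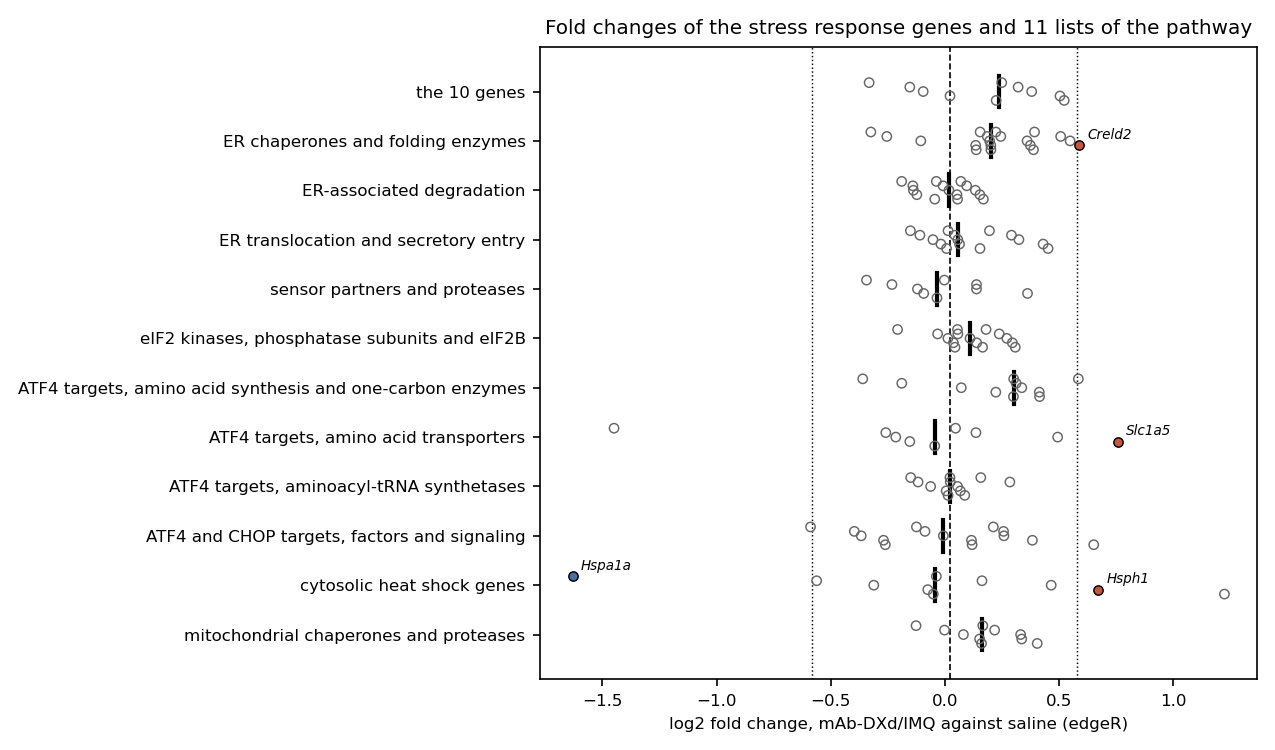
edgeR log2 fold changes (horizontal axis) of the 10 genes and of the tested genes of 11 lists; each circle is a gene, filled and named where it passed the thresholds, and thick bars are list medians. The dashed line marks the median of all tested genes (0.02) and dotted lines the fold limit of 0.58.

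Of the sensors, only Ern1 separated the groups. Ern1 (ENSMUSG00000020715, chr11:106394650-106487852, minus strand) encodes IRE1α, the kinase and RNase that splices Xbp1 mRNA. It was at 93.3, 109, 91.2, and 88.5 CPM in saline tumors and at 56.2, 74.3, 87.3, and 85.8 CPM in mAb-DXd/IMQ tumors. The highest treated tumor lay just under the lowest saline tumor, and mAb-DXd/IMQ 1 was the lowest of all. The log2 fold change was -0.33 (SE 0.14, 95% interval -0.65 to -0.015; edgeR, unadjusted p = 0.0418, adjusted p = 0.244). It was -0.21 without mAb-DXd/IMQ 1, a shift of over 1.5 times, with an adjusted p of 0.28 in edgeR.

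Eif2ak3, which encodes PERK, ranged from 26.3 to 33.3 CPM in saline tumors and from 22.5 to 29.7 CPM in treated tumors, with a log2 fold change of -0.15 (SE 0.13; edgeR adjusted p = 0.552). The groups overlapped, and the value was -0.086 without saline 2 and -0.087 without mAb-DXd/IMQ 3. It shares 8.05% of its exon bases with the antisense gene Gm43292, whose counts came to 0.883% of its own. Atf6, the sensor whose cleaved form is itself a factor, varied little within either group, at 86.0 ± 5.94 CPM (SD, n = 4) and 80.5 ± 3.11 CPM (SD, n = 4), and differed by -0.095 in log2 (95% interval -0.30 to 0.11; edgeR adjusted p = 0.627). It was -0.050 without saline 1, -0.062 without mAb-DXd/IMQ 4, and -0.022 after correction for gene length. The interval lies inside the fold limit in both directions.

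Among 9 tested partners and proteases of the sensors, 0 passed in edgeR (1.06% of all tested genes) and 2 had an unadjusted p under 0.05 (22.2%, near the 18.9% of all tested genes). The count of 2 was 1 without saline 1, saline 4, or mAb-DXd/IMQ 2 and after correction for gene length. Map3k5 (ASK1), a kinase downstream of IRE1, was lower in every treated tumor, at 69.0 to 78.0 CPM in saline and 47.6 to 65.5 CPM in mAb-DXd/IMQ tumors (log2 fold change -0.34, edgeR adjusted p = 0.147). Creb3, an ER-anchored factor, overlapped between groups at 0.36 (edgeR adjusted p = 0.212; 0.22 without mAb-DXd/IMQ 1), and 15.2% of its exon bases are shared with Tln1 on the other strand. Rtcb, the ligase that joins spliced Xbp1 mRNA, was at 0.14 and at -0.065 without mAb-DXd/IMQ 1. The site proteases of ATF6, Mbtps1 (-0.12) and Mbtps2 (-0.23), which were named after their values were seen, were both under 0 and overlapped.

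The kinases, phosphatase subunits, and exchange factor of eIF2 showed 0 of 15 past the thresholds in edgeR (1.06% of all tested genes) and 1 of 15 at an unadjusted p under 0.05 (18.9% of all tested genes). The count of 1 was 0 without saline 2, 3, or 4 or mAb-DXd/IMQ 1, 2, or 3, and 3 without mAb-DXd/IMQ 4. Above 0 were 13 of 15 (52.6% of all tested genes), and 10 of 15 without mAb-DXd/IMQ 1. The median log2 fold change was 0.11 (0.059 without saline 1). Eif2b4 had the smallest p (log2 fold change 0.27, edgeR adjusted p = 0.244) and overlaps Snx17 on the other strand, so its counts are uncertain. Eif2b5 was at 0.30, and at 0.13 without mAb-DXd/IMQ 1, its highest tumor. Eif2s1, which encodes eIF2α and was the most abundant, was at 0.06.

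Atf4 (ENSMUSG00000042406, chr15:80255184-80257541, plus strand), the central factor of the integrated stress response, was at 163, 140, 117, and 120 CPM in saline tumors and at 172, 143, 161, and 156 CPM in mAb-DXd/IMQ tumors. The groups overlapped because saline 1 was above 3 of the treated tumors. Its log2 fold change was 0.23 (SE 0.13, 95% interval -0.053 to 0.50; edgeR adjusted p = 0.364), and 0.12 after correction for gene length. Xbp1, the factor downstream of IRE1, was at 169 ± 20.7 CPM (SD, n = 4) in saline and 171 ± 21.2 CPM (SD, n = 4) in treated tumors. The difference was 0.02 in log2 (95% interval -0.26 to 0.30; edgeR adjusted p = 0.948), smaller than the spread within either group. Its sign was negative (-0.048) after correction for gene length and without saline 1 (-0.036), saline 3 (-0.0016), or mAb-DXd/IMQ 1 (-0.057).

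The remaining 3 genes are targets of the ATF4 branch. Ddit3 (ENSMUSG00000025408, chr10:127290774-127296288, plus strand), which encodes the proapoptotic factor CHOP, was at 19.95, 8.87, 9.96, and 8.69 CPM in saline tumors and at 18.09, 17.41, 10.68, and 22.04 CPM in mAb-DXd/IMQ tumors. All saline tumors but the first were under every treated tumor, and saline 1 was above 3 of them. The log2 fold change of 0.52 was the largest of the 10 genes (SE 0.30, 95% interval -0.13 to 1.18; edgeR, unadjusted p = 0.106, adjusted p = 0.372). Without saline 1 it was 0.89 (unadjusted p = 0.00256, adjusted p = 0.0817), which still missed the FDR threshold. The gene shares 68 exon bases with Mars on the other strand, and Mars had 398% of its counts. Whether the counting used strand is not given in the sources used here, so reads from the shared stretch cannot be told apart.

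Trib3, a pseudokinase that restrains ATF4 and CHOP, was at 28.9, 27.3, 24.7, and 21.4 CPM in saline tumors and at 44.9, 39.5, 12.3, and 24.8 CPM in mAb-DXd/IMQ tumors. Treated tumors 1 and 2 were above all saline tumors, and treated tumor 3 was below all of them. The log2 fold change was 0.25 (SE 0.31, 95% interval -0.44 to 0.94; edgeR adjusted p = 0.715), -0.005 without mAb-DXd/IMQ 1, 0.096 without mAb-DXd/IMQ 2, and 0.51 without mAb-DXd/IMQ 3.

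Chac1, a glutathione-degrading enzyme, was at 4.46, 2.59, 3.47, and 2.30 CPM in saline and at 4.85, 2.74, 4.41, and 4.02 CPM in treated tumors. The groups overlapped over most of their range, and the log2 fold change was 0.32 (SE 0.28, 95% interval -0.29 to 0.93; edgeR adjusted p = 0.571). It was 0.52 without saline 1 and 0.20 without saline 4. ATF4 binds composite elements with the amino acid response core TGATGNAA. Of the 9 windows of the 10 genes, Trib3 (TTACATCA, positions 15 to 22) and Chac1 (TTGCATCA, positions -193 to -186) hold it, both on the complementary strand and with no overlap with another motif, as do 3.97% of all windows. The windows of Ddit3 and Atf4 do not hold these letters. Sequence further than 250 bases before the start was not searched, so this does not show that either gene lacks the element.

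Wider ATF4 targets were read in 4 lists. Of 11 tested enzymes of amino acid synthesis and folate metabolism, 0 passed in edgeR (1.06% of all tested genes), and 5 had an unadjusted p under 0.05 (45.5%, beside 18.9% of all tested genes). Above 0 were 9 (81.8%, beside 52.6% of all tested genes), with a median log2 fold change of 0.30. mAb-DXd/IMQ 1 was the highest tumor for 6 of 11 (54.5%, beside 21.8% of all tested genes), and without it 8 were above 0 with a median of 0.18. The count of 5 was 3 without saline 2, 2 without saline 4, 3 without mAb-DXd/IMQ 1, and 2 after correction for gene length. Phgdh, which opens serine synthesis, was at 71.0 to 147 CPM in saline and 136 to 215 CPM in treated tumors (log2 fold change 0.59, SE 0.23; edgeR adjusted p = 0.2), and 37.3% of its 100-base windows also occur in other genes. Psph, which completes serine synthesis, did not overlap between groups (0.42, edgeR adjusted p = 0.131). It shares exon bases with Cct6a, which had many times its counts, and is uncertain. Pycr1 (-0.19, named after its values were seen) and Mthfd1l were under 0. Mthfd1l, a mitochondrial folate enzyme, was lower in every treated tumor (-0.36, edgeR adjusted p = 0.131).

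Of 9 amino acid transporters, 1 rose (1.06% of all tested genes were called) and 0 fell, and 4 were above 0 (44.4%, beside 52.6% of all tested genes). Slc1a5, the glutamine transporter ASCT2, was at 45.5, 54.1, 56.5, and 45.8 CPM in saline tumors and at 70.7, 73.6, 114, and 83.1 CPM in mAb-DXd/IMQ tumors. Every treated tumor was above every saline tumor, with tumor 3 highest, and the log2 fold change was 0.76 (SE 0.16; edgeR adjusted p = 0.0458). The call was lost without saline 1, 2, 3, or 4 (adjusted p = 0.0744, 0.0808, 0.0996, and 0.155) and without mAb-DXd/IMQ 2, 3, or 4 (adjusted p = 0.0669, 0.0596, and 0.111). It was also lost in limma-voom (adjusted p = 0.0512), when scaled by library totals (adjusted p = 0.0561), and after correction for gene length (adjusted p = 0.0625). Slc7a11, the cystine transporter, was at 43.7, 195, 75.2, and 119 CPM in saline tumors and at 34.1, 59.5, 15.3, and 49.6 CPM in treated tumors. The groups overlapped and saline tumors spread over a wide range, so that a log2 fold change of -1.45 (SE 0.46) had an adjusted p of 0.129 in edgeR. Its partner chain Slc3a2 was at 0.05.

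Of 12 aminoacyl-tRNA synthetases, 0 passed in edgeR, 0 had an unadjusted p under 0.05 (1.06% and 18.9% of all tested genes), and 9 were above 0 (75%, beside 52.6% of all tested genes; 3 without mAb-DXd/IMQ 1, 6 without saline 4 or mAb-DXd/IMQ 3). Mars (0.29, edgeR adjusted p = 0.268), which overlaps Ddit3, and Yars (0.16, and 0.095 without mAb-DXd/IMQ 1) had the smallest p, and Nars was the most abundant (0.07). Of 15 tested factors and signaling targets of ATF4 and CHOP, 0 passed in edgeR (1.06% of all tested genes), 7 were above 0 (46.7%, beside 52.6%), and 3 had an unadjusted p under 0.05 (20%, near the 18.9% of all tested genes). Tnfrsf10b, the death receptor DR5, was higher in every treated tumor, at 46.4 to 54.1 CPM against 36.6 to 39.5 CPM (log2 fold change 0.38, SE 0.096; edgeR adjusted p = 0.0702). Cebpb was lower in every treated tumor, at 70.5 to 131 CPM against 156 to 175 CPM (-0.59, edgeR adjusted p = 0.102), and passed the thresholds in DESeq2 (-0.59, adjusted p = 0.027). It shares 20.7% of its exon bases with Tmem189 on the other strand. Ddit4, a brake on mTORC1 and the list's most abundant gene, overlapped (-0.40, edgeR adjusted p = 0.525) and depended on single tumors, at -0.11 without saline 4, -0.17 without mAb-DXd/IMQ 3, and -0.65 without mAb-DXd/IMQ 1.

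Chaperones outside the ER were compared as well. Of 10 cytosolic heat shock genes, 1 rose and 1 fell (1.06% of all tested genes were called), and 5 had an unadjusted p under 0.05 (18.9% of all tested genes). Hsph1, the exchange factor HSP110, was at 48.8, 42.5, 53.4, and 43.9 CPM in saline tumors and rose to 71.2, 68.2, 93.2, and 67.6 CPM in mAb-DXd/IMQ tumors. The groups did not overlap (log2 fold change 0.67, SE 0.13; edgeR adjusted p = 0.0403), and the call was lost when any of the 8 tumors was left out. The adjusted p was then 0.0579, 0.0857, 0.0813, and 0.143 without saline 1, 2, 3, and 4 and 0.052, 0.0661, 0.0587, and 0.0899 without mAb-DXd/IMQ 1, 2, 3, and 4. Hspa1a fell from 4.36, 6.07, 3.57, and 4.54 CPM to 1.53, 1.73, 1.22, and 1.49 CPM, with a log2 fold change of -1.63 (SE 0.25; edgeR adjusted p = 0.0201). The call was lost without saline 3 (adjusted p = 0.0657), saline 4 (0.0846), or mAb-DXd/IMQ 4 (0.0694). Since 47.1% of its 100-base windows are also in its near copy Hspa1b, which was more abundant and did not pass (-0.56, edgeR adjusted p = 0.341), its counts are uncertain. Hsp90ab1, the most abundant gene of the list, was at -0.05 and turned positive without mAb-DXd/IMQ 3 (0.058) or 4 (0.048).

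Of 10 mitochondrial chaperones and proteases, 0 passed in edgeR (1.06% of all tested genes) and 2 had an unadjusted p under 0.05 (20%, near the 18.9% of all tested genes). The count of 2 was 1 without saline 1, 0 after correction for gene length, and 4 when scaled by library totals. Above 0 were 8 of 10 (80%, beside 52.6% of all tested genes), with a median log2 fold change of 0.16. mAb-DXd/IMQ 1 was the highest tumor for 7 of 10 (70%, beside 21.8% of all tested genes), and without it 6 were above 0 with a median of 0.12. Hspd1 (HSP60) was at 269 to 299 CPM in saline and 309 to 471 CPM in treated tumors (0.40, edgeR adjusted p = 0.146), and its partner Hspe1 (HSP10) at 0.34 (edgeR adjusted p = 0.192). The pair overlap each other on opposite strands, and 26.9% of the windows of Hspd1 occur in other genes.

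Across the 11 lists, 140 of 145 listed genes were tested, and edgeR called 4 (2.86%, beside 1.06% of all tested genes): Creld2, Slc1a5, and Hsph1 rose and Hspa1a fell. Groups did not overlap for 18 higher and 4 lower of them, or 15.7%, beside 13.1% of all tested genes, and 31 had an unadjusted p under 0.05 (22.1%, beside 18.9%). By direction, 12.9% were higher without overlap, beside 5.97% of all tested genes. Of those 18 genes, 8 came from the ER chaperone list. Tumor mAb-DXd/IMQ 1 was highest for 49.3% of the 140, beside 21.8% of all tested genes. Lower without overlap were 4 of 140, beside 1314 of all 18511 tested genes. The lists were chosen with earlier results of these data known, so these shares only describe them. DESeq2 called 6 of them, adding Cebpb and Hspb1 (named after its values were seen). That was 4.29%, about its share of all tested genes (4.43%). limma-voom called 3, without Slc1a5 (2.14%, beside 0.94%). With any tumor left out, edgeR called 0 to 2: 0 without saline 3, saline 4, or mAb-DXd/IMQ 4, 1 without saline 2, mAb-DXd/IMQ 2, or mAb-DXd/IMQ 3, and 2 without saline 1 or mAb-DXd/IMQ 1.

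Cell composition was read from marker lists. The 7 carcinoma epithelium markers, led by Krt18 (678 CPM), summed to 2566, 1961, 2596, and 2447 CPM in saline tumors and to 3728, 2928, 2138, and 2241 CPM in mAb-DXd/IMQ tumors. Their sum was highest in mAb-DXd/IMQ 1, the tumor with the highest chaperone counts, and 0 of 7 passed in edgeR. All 7 were above 0 (52.6% of all tested genes were) and overlapped between groups. Log2 fold changes ran from 0.0083 (Krt8) and 0.024 (Cdh1) to 0.82 (Cldn7). The part of these markers in the chaperone values was not tested. Plasma cells are rich in ER chaperones and in Xbp1. Of 8 tested plasma cell markers, Igkc fell (log2 fold change -5.40, edgeR adjusted p = 0.0489), with -3.44 without saline 4. The call was lost without saline 2, 3, or 4 (adjusted p = 0.0662, 0.0681, and 0.107), without mAb-DXd/IMQ 1, 2, 3, or 4 (adjusted p = 0.086, 0.0958, 0.0912, and 0.132), in limma-voom (adjusted p = 0.281), when scaled by library totals (adjusted p = 0.0523), and after correction for gene length (adjusted p = 0.0568). Jchain, Mzb1, and Irf4 were named after their values were seen. Jchain was lower in every treated tumor without passing in edgeR (-4.30, adjusted p = 0.0557). It was at -2.75 without saline 4, and it passed without saline 1 (adjusted p = 0.039) and in DESeq2 (adjusted p = 0.00165). Mzb1 (-3.03, and -0.96 without saline 4; edgeR adjusted p = 0.166) and Irf4 (-1.26, edgeR adjusted p = 0.131; DESeq2 adjusted p = 0.0362) overlapped. So did the other 4, also named after their values were seen, in both directions: Sdc1 (0.31, and 0.18 without saline 2), Prdm1 (0.05), Ighm (-0.25), and Derl3 (-0.55). Prdm1 was at -0.24 without mAb-DXd/IMQ 3 and 0.19 without mAb-DXd/IMQ 4, Ighm at -0.59 without saline 1 and -0.018 without saline 4, and Derl3 at -0.90 without saline 1 and 0.45 without saline 4. Tnfrsf17 was at or near 0 counts in every tumor. The 9 markers, led by Sdc1 (284 CPM), which epithelial cells also express, summed to 337, 262, 310, and 465 CPM in saline tumors and to 409, 360, 380, and 260 CPM in treated tumors, and Sdc1 made up most of each sum. Igkc was at 3.37 to 128 CPM in saline and 0.495 to 1.28 CPM in treated tumors. The part of plasma cells in the values above was not tested.

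T cell markers, led by Cd3g (10.6 CPM), summed to 29.4 to 48.4 CPM in saline and 11.9 to 26.5 CPM in mAb-DXd/IMQ tumors, without overlap, and Cd2 fell (log2 fold change -1.44, edgeR adjusted p = 0.0458). The call of Cd2 was lost without saline 1, 2, 3, or 4 (adjusted p = 0.0607, 0.0682, 0.106, and 0.155) and without mAb-DXd/IMQ 1, 2, 3, or 4 (adjusted p = 0.0649, 0.0518, 0.0779, and 0.112), and when scaled by library totals (adjusted p = 0.0523). Of the neutrophil markers Csf3r fell (-0.80, edgeR adjusted p = 0.0402), while the sum, led by Mmp9 (375 CPM), overlapped at 228 to 574 and 352 to 830 CPM. The call of Csf3r was lost without saline 1, 2, 3, or 4 (adjusted p = 0.0625, 0.0715, 0.0754, and 0.134) and without mAb-DXd/IMQ 2, 3, or 4 (adjusted p = 0.0749, 0.0587, and 0.0935), and when scaled by library totals (adjusted p = 0.0601). Mmp9 made up most of that sum and overlapped (log2 fold change 0.82, and 0.48 without mAb-DXd/IMQ 3; edgeR adjusted p = 0.298), against S100a8 (-1.74) and S100a9 (-1.81), which were lower in every treated tumor without passing the thresholds (edgeR adjusted p = 0.0521 and 0.0598; both named after their values were seen). Both passed without saline 2 (adjusted p = 0.0476 and 0.0431) and in DESeq2 (adjusted p = 0.000141 and 0.0155), and S100a9 was at -1.18 without saline 1. Retnlg (-1.78) and Cxcr2 (-0.74), also named after their values were seen, were under 0 and overlapped (edgeR adjusted p = 0.216 and 0.313). The sums of macrophage markers (led by C1qa, 872 to 2830 and 1070 to 1630 CPM), fibroblast markers (Col1a1, 2130 to 5330 and 2100 to 5560 CPM), and endothelial markers (Pecam1, 77.5 to 191 and 155 to 190 CPM) overlapped between saline and treated tumors. Within these lists, and named after their values were seen, Mrc1 (-1.37, edgeR adjusted p = 0.0574) and Pdgfra (-0.48, edgeR adjusted p = 0.0679) were lower in every treated tumor, and Emcn was higher (0.87, edgeR adjusted p = 0.144). Mrc1 was at -0.90 without saline 2, and it passed without saline 1 (adjusted p = 0.0294) and in DESeq2 (adjusted p = 0.000507), as did Emcn in DESeq2 (adjusted p = 0.0414). Pdgfra did not stand for its list. Pdgfrb (0.32) and Lum (0.14) were above 0, Col1a1 (-0.06), Col3a1 (-0.06), and Dcn (-0.25) were under 0, and all 5 overlapped (named after their values were seen, as are the markers that follow). Each turned sign when a single tumor was left out: Pdgfrb without mAb-DXd/IMQ 3 (-0.026), Lum without saline 1 (-0.12), and Col1a1 (0.13), Col3a1 (0.22), and Dcn (0.069) without saline 4. The other 6 macrophage markers were under 0 and the other 4 endothelial markers above 0, all with overlap. Without saline 2, Cd68 (0.19), C1qa (0.17), and C1qb (0.063) turned positive, as did C1qa without mAb-DXd/IMQ 4 (0.024), and without saline 1 Cdh5 was at -0.0020. Sums also overlapped for skeletal muscle (Acta1, 38.2 to 397 and 69.7 to 307 CPM), adipocytes (Adipoq, 0.0677 to 3.14 and 0.66 to 1.86 CPM), and epidermis (Krt14, 32.4 to 202 and 101 to 505 CPM). Of the receptor genes that define TNBC by their absence at the protein level, Erbb2 led at 102 CPM, and the sums were 93.0 to 139 and 97.5 to 135 CPM. Within that list, Esr1 was lower in every treated tumor, at 17.9 to 20.6 CPM in saline and 13.6 to 17.2 CPM in treated tumors. Its log2 fold change was -0.29 (edgeR adjusted p = 0.258). Erbb2 (-0.02) and Pgr (0.67) overlapped.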

How the data were processed

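The authors deposited the count of reads of each gene in each tumor as whole numbers, not normalized, beside gene lengths; the number of other per-sample columns was 0. Libraries were made from poly(A) RNA and sequenced on an Illumina HiSeq X system. The submitters' processing notes name HISAT2, HISAT, TopHat2, and mm39, while gene coordinates in the table matched GRCm38: 53585 of 54495 genes shared with GENCODE M21 had the same start and end. The counting program and its strand setting are not given in the sources used here.

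Groups came from the sample titles. Genes were kept by filterByExpr (minimum count 10, minimum total count 15), scaled by TMM (factors 0.94 to 1.07), and compared with edgeR 4.0.16 (quasi-likelihood F-test, no covariates; FDR 0.05, absolute log2 fold change 0.58, as in the study's methods, which name a later edgeR version). CPM and RPKM used the TMM-scaled library. Standard errors were derived from the F statistic, and 95% intervals used 11 degrees of freedom. P-values measure the spread between tumors of a group (biological coefficient of variation 0.273). limma 3.58.1, DESeq2 1.42.0, R 4.3.3, Python 3.11.15, matplotlib 3.10.9, and BLAST+ 2.17.0 (shared transcript windows) were used. The steps were tested on simulated data. None of the 28 pairs of libraries was a duplicate.

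The 10 genes and all lists were chosen with earlier results of these data known. Named were all 10 genes; from each of the 11 pathway lists up to 4 genes past the thresholds, the 2 of smallest p, and the most abundant per length; and from each marker list the most abundant gene and any past the thresholds. Hm13 matched no gene, and Srp54a, Ern2, Cbs, and Fgf21 were too low for testing. Alternatives were other scalings, filters, and tests, a replicate block, a length correction (spline with 5 degrees of freedom per tumor), each tumor left out, and, chosen after seeing the data, edgeR's newer quasi-likelihood method. Promoter windows came from RefSeq (GRCm38.p6).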

Additional observations from a re-analysis of the deposited data

Results flagged for a closer look

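Within each group of 4 tumors, the gap between the highest or lowest tumor and its nearest neighbor was compared with the range of the group, for 112 groups over genes, marker sums, and library measures. The ratio passed the critical value of Dixon's test for 4 tumors in 4 of the 112 groups. Chance alone gives about 1 in 20, so no more groups were flagged than chance would give. Ddit3 in saline 1 (19.95 CPM, next 9.96 CPM) had a ratio of 0.887. Psph in mAb-DXd/IMQ 1 (28.4 CPM, next 23.8 CPM) had a ratio of 0.911, and Dnajb11 in the same tumor (114 CPM, next 89.2 CPM) one of 0.843. Hsph1 in mAb-DXd/IMQ 3 (93.2 CPM, next 71.2 CPM) had a ratio of 0.858. The causes were not tested.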

How the results depend on the processing

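No alternative brought any of the 10 genes past the thresholds, and for 8 of them the sign was kept in all 18 alternatives. The exceptions were Xbp1, at -0.048 with the length correction and -0.051 with the length correction and replicate block (-0.057 to 0.10 with each tumor left out), and Trib3, at -0.0068 with the length correction and replicate block (-0.0050 to 0.51 with each tumor left out). Among the other named genes, the length correction reversed Slc3a2 (-0.012) and Nars (-0.021), and with the replicate block added Slc3a2 (-0.024), Nars (-0.040), Derl1 (-0.0049), and Rtcb (-0.0018). With each tumor left out, log2 fold changes ranged from -0.014 to 0.23 for P4hb, -0.0021 to 0.14 for Derl1, -0.065 to 0.26 for Rtcb, -0.047 to 0.11 for Eif2s1, -0.016 to 0.15 for Slc3a2, -0.043 to 0.16 for Nars, and -0.25 to 0.058 for Hsp90ab1. The count over all genes was 197, and it was 358 without a filter, 787 with DESeq2, 116 with the length correction, 14 with the replicate block, 14 with both, and 10 to 203 with each tumor left out. The count over the pathway lists was 4, and it was 2 with the length correction, 0 with the replicate block, 0 with both, and 0 to 2 with each tumor left out. edgeR's newer method, chosen after seeing the data, gave 291 and 4. Why these counts moved was not tested. Fold changes correlated with gene length across genes (rho -0.212, and -0.031 after the correction), and genes are not independent replicates. No pairing by replicate number was seen: deviations of same-numbered tumors correlated at -0.17, -0.055, 0.079, and -0.067, and not every tumor correlated best with its own number. With 4 tumors per group, this check cannot exclude pairing or a shared batch. Limits: the tumors were bulk tissue taken at a single time, the payloads were not given apart, and gene counts do not show splicing, translation, or protein.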
